A study of Mus musculus with 4 samples.

Results

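The genes of oxidative phosphorylation were followed here in a chromatin immunoprecipitation and sequencing study of histone H3 lysine 9 acetylation (H3K9ac), a mark found at active promoters. They were taken by symbol, as every row of the deposited gene table whose name begins with Nduf, Uqcr, Cox plus a digit or Atp5, or is Sdha, Sdhb, Sdhc or Sdhd, and no measured value entered the choice. This gave 82 of the 9615 genes in the table. By role they are 37 genes of complex I, 4 of complex II, 7 of complex III, 18 of complex IV and 15 of complex V, with the assembly factors counted at their complex. The roles came from a list of 104 subunit and assembly factor genes, of which 81 had a row. The symbol rule also took in Cox4nb, the neighbour of Cox4i1, which encodes no respiratory chain subunit.

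The tg group is leukaemic bone marrow of mice with floxed alleles of Gfi1b, the NUP98/HOXD13 transgene and the Mx-Cre transgene. The WT group is leukaemic marrow with the same floxed alleles and the same NUP98/HOXD13 transgene but without Mx-Cre, so WT is the submitters' name and not a healthy control. The Mx promoter that drives the Cre is inducible by interferon and is not limited to leukaemic cells. The sources used here do not state the age of the mice, the number of animals behind a library or whether Cre was induced. Each group has 1 H3K9ac library, and the 2 IgG libraries were not analysed here. No test between the genotypes, and hence no p-value, is possible from single libraries, and "higher" and "lower" describe these 2 libraries.

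Oxidative phosphorylation couples the oxidation of NADH and succinate to the synthesis of ATP in the inner mitochondrial membrane. Complex I (NADH dehydrogenase) and complex II (succinate dehydrogenase) pass electrons to ubiquinone, complex III (the cytochrome bc1 complex) passes them on to cytochrome c, and complex IV (cytochrome c oxidase) passes them to oxygen. Complexes I, III and IV pump protons, and complex V (ATP synthase) uses the gradient. Most subunits are encoded in the nucleus by genes that are active in nearly every cell type, while a few core subunits are encoded in mitochondrial DNA. In the red cell lineage the mitochondria also house haem synthesis and are removed at the end of maturation.

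The table holds a log2 value per gene and library, the mean over the gene's probes. Whole read counts could be worked out for all 82 genes, of which 73 had 1 probe and 9 had 2. Levels below are reads at the gene's probes, and ratios are tg over WT after scaling by the library totals of 163713 reads in tg and 309649 in WT. The WT library was 1.89 times deeper, so equal scaled levels mean fewer reads in tg. Ratios carry exact 95% counting intervals, which cover counting error alone and leave out all variation between animals. The reads carry no molecular identifiers, so they need not be separate molecules. The width of the probes is not given. Levels were compared between genes only to divide them at the median level and to choose genes to name, and probe width may enter there.

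H3K9ac at the oxidative phosphorylation genes was close to equal in the tg and WT libraries. The median log2 ratio was 0.09, beside 0.05 for all genes. Of the 82 genes, 12 (14.6%) reached a 2-fold higher level in tg and 6 (7.32%) a 2-fold lower one, beside 16.5% and 15.8% of all genes. The log2 ratios ran from -2.17 (Ndufb11) to 2.30 (Ndufa12), with an SD over the genes of 0.81 against 1.27 over all genes in the table. No gene was without reads in either library. Reads per gene ran from 2 to 41 in tg, with a median of 13, and from 4 to 91 in WT, with a median of 19.

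The counting interval of the read ratio lay above 1 for 8 of the 82 genes (9.76%) and below 1 for 2 (2.44%), beside 11.9% and 12.2% of the 8995 genes with 1 or 2 probes. For the other 72 genes the difference was not detectable at these read counts. The share with a higher level in tg was near that of all genes, and the share with a lower level was smaller, a description of these libraries without a test. At a limit of 1.5-fold, 24 genes (29.3%) were higher and 11 (13.4%) lower, beside 28.7% and 25.4% of all genes. At 3-fold, 5 (6.10%) were higher and 2 (2.44%) lower, beside 8.49% and 7.99%. Among the 47 genes whose mean level reached the median of all genes, 5 (10.6%) were 2-fold higher and 1 (2.13%) was 2-fold lower, beside 10.2% and 10.8% of all genes at that level. Of the 18 genes beyond 2-fold, 12 thus lay below the median level. The 47 genes at or above it had a median log2 ratio of 0.28, with 31 above 0 and 16 below. All genes at that level had a median of 0.03.

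**Figure D1:**
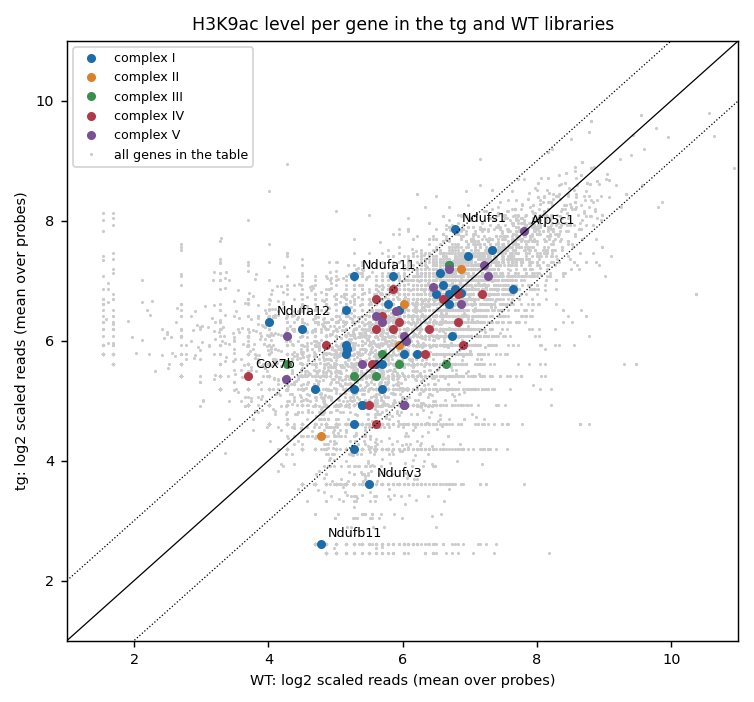
Deposited log2 level of each gene in tg (vertical axis) against WT (horizontal axis), in log2 scaled reads averaged over probes, with all genes in grey and the oxidative phosphorylation genes coloured by complex; the solid line marks equality and the dotted lines a 2-fold difference. Most coloured points lie between the dotted lines, with Ndufa12 farthest above (log2 ratio 2.30) and Ndufb11 farthest below (-2.17).

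Summed over all genes of the rule, with the locus shared by Cox4i1 and Cox4nb counted once, the reads came to 1187 in tg and 1991 in WT. This is a scaled ratio of 1.13 (1.05 to 1.21), while the sum over all genes with 1 or 2 probes gave 0.981 (0.974 to 0.987). The sum for complex I was 538 reads in tg and 878 in WT, a ratio of 1.16 (1.04 to 1.29). Complex II had 57 reads in tg and 93 in WT (1.16, 0.819 to 1.63), and complex III 72 in tg and 131 in WT (1.04, 0.769 to 1.40). Complex IV had 230 in tg and 417 in WT (1.04, 0.884 to 1.23), and complex V 290 in tg and 472 in WT (1.16, 1.00 to 1.35). The intervals of complexes II, III and IV include 1, and all 5 complexes overlap in their intervals. That of complex V begins at 1.0005, and its 14 subunit genes alone gave 1.14 (0.980 to 1.33), which includes 1. These sums treat the reads of different genes alike and say nothing of spread between animals.

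**Figure D2:**
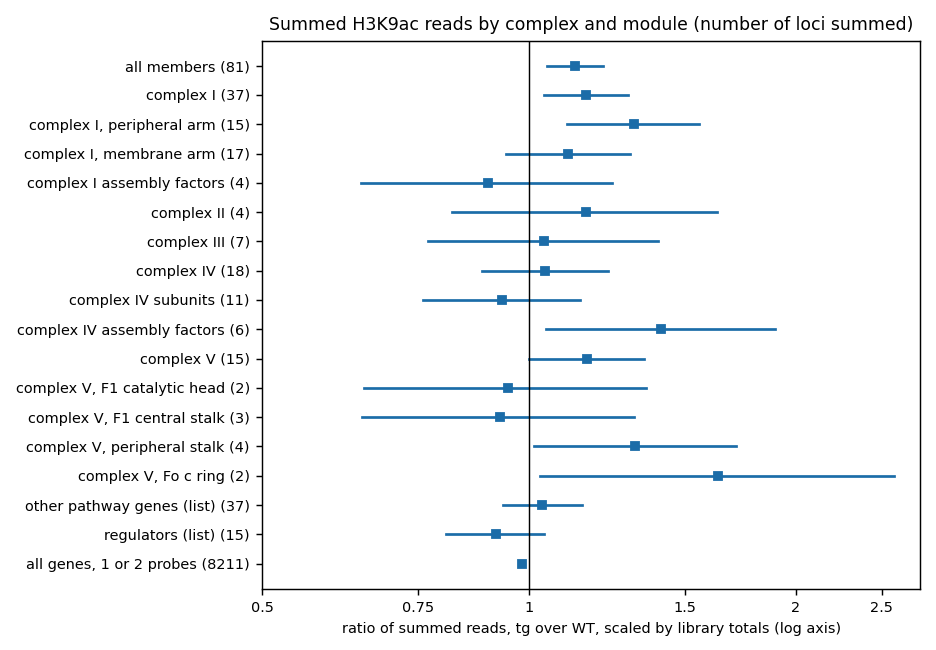
Ratio of summed reads, tg over WT, scaled by library totals (squares, log axis) with its 95% counting interval (lines), for the complexes, their parts and the comparison lists; the number of loci summed stands in brackets and the vertical line marks a ratio of 1. The ratios of the 5 complexes lie between 1.04 and 1.16, with the complex IV subunits alone at 0.933.

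Complex I held the highest and the lowest ratios of the set. Among its 37 genes, 6 passed 2-fold in the higher direction in tg and 4 in the lower, and the median log2 ratio was 0.09. These are 16.2% and 10.8% of the complex I genes, beside 16.5% and 15.8% of all genes. The gene farthest up was Ndufa12, an accessory subunit of the peripheral arm (chromosome 10, 94198955 to 94221443, GRCm38). It had 13 reads in tg and 5 in WT, 4.92-fold higher (1.65 to 17.6). Ndufa11, a membrane arm subunit (chromosome 17, 56717762 to 56724248), had 22 reads in tg and 12 in WT, 3.47-fold higher (1.64 to 7.69). Farthest down was Ndufb11, a membrane arm subunit on the X chromosome (20615326 to 20617619). Its probes held 1 and 1 reads in tg against 8 and 9 in WT, 4.49-fold lower (1.07 to 40.1), so that both probes were lower in tg.

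Promoter sequence is shown for these genes and for others with a binding motif for NRF1, a transcription factor known to act on respiratory chain genes. H3K9ac marks active promoters, but the positions of the probes are not given, so no read can be assigned to these bases. Windows of 300 bases (250 before to 50 after the start) came from RefSeq, build GRCm38.p6, and 68 of the 82 genes had one. Searched on both strands were a core of the NRF1 motif (GCATGCGC), a core of the ETS motif bound by GABP (CCGGAAG) and a core of the YY1 motif (AAGATGGC). The NRF1 core was in 9 windows (13.2%), beside 6.37% of 7034 windows of genes in the table. The ETS core was in 17 (25%, beside 22.2%) and the YY1 core in 9 (13.2%, beside 5.56%). A match describes letters and not a binding site.

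The 250 bases before the start are printed for the genes with the highest and lowest ratio (Ndufa12 and Ndufb11), where no core was found, and for Ndufa11, Ndufa8 and Cox6a1, which were 2-fold higher in tg and hold the NRF1 core. They were chosen after their values were seen. Capitals mark the NRF1 core and, near the end of Cox6a1, the ETS core. In Ndufa11 and Cox6a1 the NRF1 core overlaps its own copy on the other strand. The windows lie at chr10:94198785-94199034 (plus strand), chr17:56717512-56717761 (plus), chr2:36049339-36049588 (minus), chr5:115348959-115349208 (minus) and chrX:20617620-20617869 (minus).
Ndufa12: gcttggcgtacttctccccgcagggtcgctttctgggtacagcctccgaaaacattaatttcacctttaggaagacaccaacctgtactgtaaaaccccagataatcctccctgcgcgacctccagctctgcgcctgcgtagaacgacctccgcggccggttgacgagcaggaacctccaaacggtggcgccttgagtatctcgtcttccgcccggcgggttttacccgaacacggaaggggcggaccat
Ndufa11: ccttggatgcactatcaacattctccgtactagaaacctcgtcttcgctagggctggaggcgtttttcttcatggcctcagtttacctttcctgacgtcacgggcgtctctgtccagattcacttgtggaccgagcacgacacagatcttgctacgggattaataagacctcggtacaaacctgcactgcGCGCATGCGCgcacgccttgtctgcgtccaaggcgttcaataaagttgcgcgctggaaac
Ndufa8: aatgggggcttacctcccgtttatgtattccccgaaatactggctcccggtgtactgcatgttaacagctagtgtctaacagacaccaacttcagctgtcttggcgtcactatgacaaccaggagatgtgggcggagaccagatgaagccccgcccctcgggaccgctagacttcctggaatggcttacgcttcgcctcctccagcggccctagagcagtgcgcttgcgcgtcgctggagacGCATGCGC
Cox6a1: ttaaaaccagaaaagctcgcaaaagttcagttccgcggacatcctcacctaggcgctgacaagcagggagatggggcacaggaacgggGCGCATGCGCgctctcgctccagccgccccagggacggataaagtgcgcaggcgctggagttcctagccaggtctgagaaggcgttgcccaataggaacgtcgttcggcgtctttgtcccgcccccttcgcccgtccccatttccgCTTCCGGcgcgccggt
Ndufb11: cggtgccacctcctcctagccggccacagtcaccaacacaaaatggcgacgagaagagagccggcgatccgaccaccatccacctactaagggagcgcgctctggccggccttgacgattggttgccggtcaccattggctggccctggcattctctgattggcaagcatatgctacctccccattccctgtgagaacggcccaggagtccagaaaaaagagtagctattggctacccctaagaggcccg

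The 9 genes with an NRF1 core were Ndufa6, Ndufa8, Ndufa11, Ndufaf4, Sdhb, Uqcrc1, Cox6a1, Atp5k and Atp5l. In tg, 4 of them passed 2-fold upward and 0 downward, and their log2 ratios had a median of 0.62. Of those passing upward, Uqcrc1 and Cox6a1 have intervals that include 1. Of the 59 genes with a window but no such core, 6 passed upward and 6 downward, around a median of 0.02. Among all 448 genes of the table with an NRF1 core, members included, 13.8% passed upward and 8.04% downward, around a median of 0.11. Of the 6586 table genes with a window but no such core, 16.03% passed upward and 16.17% downward, around a median of 0.03. The 9 genes of the set with a YY1 core had a median of 0.44, with 0 passing upward and 1 downward (Ndufc1). Among all 391 table genes with a YY1 core, 14.6% passed upward and 9.72% downward, around a median of 0.03. The 17 genes of the set with an ETS core had a median of 0.10, with 3 upward and 1 downward. Among all 1564 table genes with an ETS core, 14.3% passed upward and 10.3% downward, around a median of 0.09. The groups within the set are small, and no groups were tested against each other.

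The peripheral arm of complex I reaches into the matrix and carries the NADH site and the iron-sulfur clusters. Its 15 genes had a summed ratio of 1.31 (1.10 to 1.56) on 231 reads in tg and 333 in WT, and 10 of the 15 had a ratio above 1. Ndufs1, the largest iron-sulfur subunit, had 38 reads in tg and 34 in WT, 2.11-fold higher (1.30 to 3.46). Its probe has the same values as that of Eef1b2, a translation elongation factor gene. The annotated spans of the genes lie 3 bases apart, so the reads cannot be assigned to either gene. The 7 core subunits of the arm, which carry out the electron transfer, had a summed ratio of 1.35 (1.05 to 1.72). Ndufs1 gave 33.3% of the core's reads in tg and 16.45% of those of the whole arm. Ndufa2, an accessory gene of the arm with 30 reads in tg and 50 in WT, also shares its values with a neighbour. Both sums thus include reads that cannot be assigned to the arm alone.

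Among the other core subunits, Ndufs7 had 16 reads in tg and 17 in WT (1.78, 0.842 to 3.75). The flavin-binding subunit Ndufv1 had 6 reads in tg and 12 in WT (0.946, 0.291 to 2.72), and Ndufv2 16 in tg and 32 in WT (0.946, 0.485 to 1.77). Ndufs3 had 19 in tg and 34 in WT (1.06, 0.570 to 1.91), and Ndufs8 4 in tg and 12 in WT (0.630, 0.148 to 2.08). Each of these 5 intervals includes 1, so that of the core subunits described Ndufs1 alone had an interval above 1.

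Accessory subunits of the peripheral arm differed more among themselves. Ndufv3 had 2 reads in tg and 14 in WT, 3.70-fold lower (0.850 to 33.6), while Ndufa12 was the highest of the set. Ndufs4 had 10 reads in tg and 11 in WT (1.72, 0.655 to 4.46), and Ndufs6 9 in tg and 11 in WT (1.55, 0.567 to 4.11). Both are known from inherited complex I deficiency in people. Ndufa2, with the same values as its neighbour Ik, had 30 reads in tg and 50 in WT (1.13, 0.697 to 1.82). Ndufa5, Ndufa6 and Ndufa7 lay between ratios of 0.727 (Ndufa5) and 1.36 (Ndufa6). Ndufab1, the acyl carrier protein bound to complex I, had 6 reads in tg and 8 in WT (1.42, 0.406 to 4.66). Of these accessory subunits, Ndufa12 alone had an interval that left out 1.

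The membrane arm houses proton pumping, and its accessory subunits surround a core encoded in mitochondrial DNA. Among 17 such genes, 4 passed 2-fold upward in tg and 3 downward, at a summed ratio of 1.11 (0.941 to 1.30). These are 23.5% and 17.6% of a small group, beside 16.5% and 15.8% of all genes. Higher besides Ndufa11 were Ndufa8, with 12 reads in tg and 7 in WT (3.24-fold, 1.18 to 9.72), Ndufb7, with 15 in tg and 11 in WT (2.58-fold, 1.11 to 6.21), and Ndufb10, with 22 in tg and 18 in WT (2.31-fold, 1.18 to 4.57). Ndufa8, Ndufb7 and Ndufb10 encode subunits of the intermembrane space side with twin cysteine motifs. Ndufs5, another such subunit, had 18 reads in tg and 28 in WT (1.22, 0.633 to 2.28), so the genes of this kind were not uniformly 2-fold higher.

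Lower besides Ndufb11 were Ndufc1, with 5 reads in tg and 20 in WT (2.11-fold lower, 0.770 to 7.21), and Ndufb2, with 3 in tg and 12 in WT (2.11-fold lower, 0.571 to 11.7). Both intervals include 1. Ndufa13, also known as GRIM-19, had 41 reads in tg and 91 in WT, summed over 2 probes (0.852, 0.574 to 1.25). Its values equal those of the overlapping gene Yjefn3. The other membrane arm genes lay between ratios of 0.630 (Ndufb8, 11 reads in tg and 33 in WT) and 1.48 (Ndufb3, 25 reads in tg and 32 in WT), with intervals that include 1.

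The 4 Ndufaf genes encode assembly factors of complex I and not subunits. Ndufaf3 had 19 reads in tg and 62 in WT, 1.73-fold lower (1.02 to 3.06), and was with Ndufb11 the only gene of the set whose interval lay below 1. A small unnamed gene model 953 bases away, CT010508.1, has the same values. Ndufaf1 had 23 reads in tg and 29 in WT (log2 ratio 0.59, ratio interval 0.829 to 2.69), Ndufaf2 8 in tg and 15 in WT (1.01, 0.370 to 2.53) and Ndufaf4 8 in tg and 16 in WT (0.946, 0.350 to 2.34). These 3 intervals include 1.

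**Figure D3:**
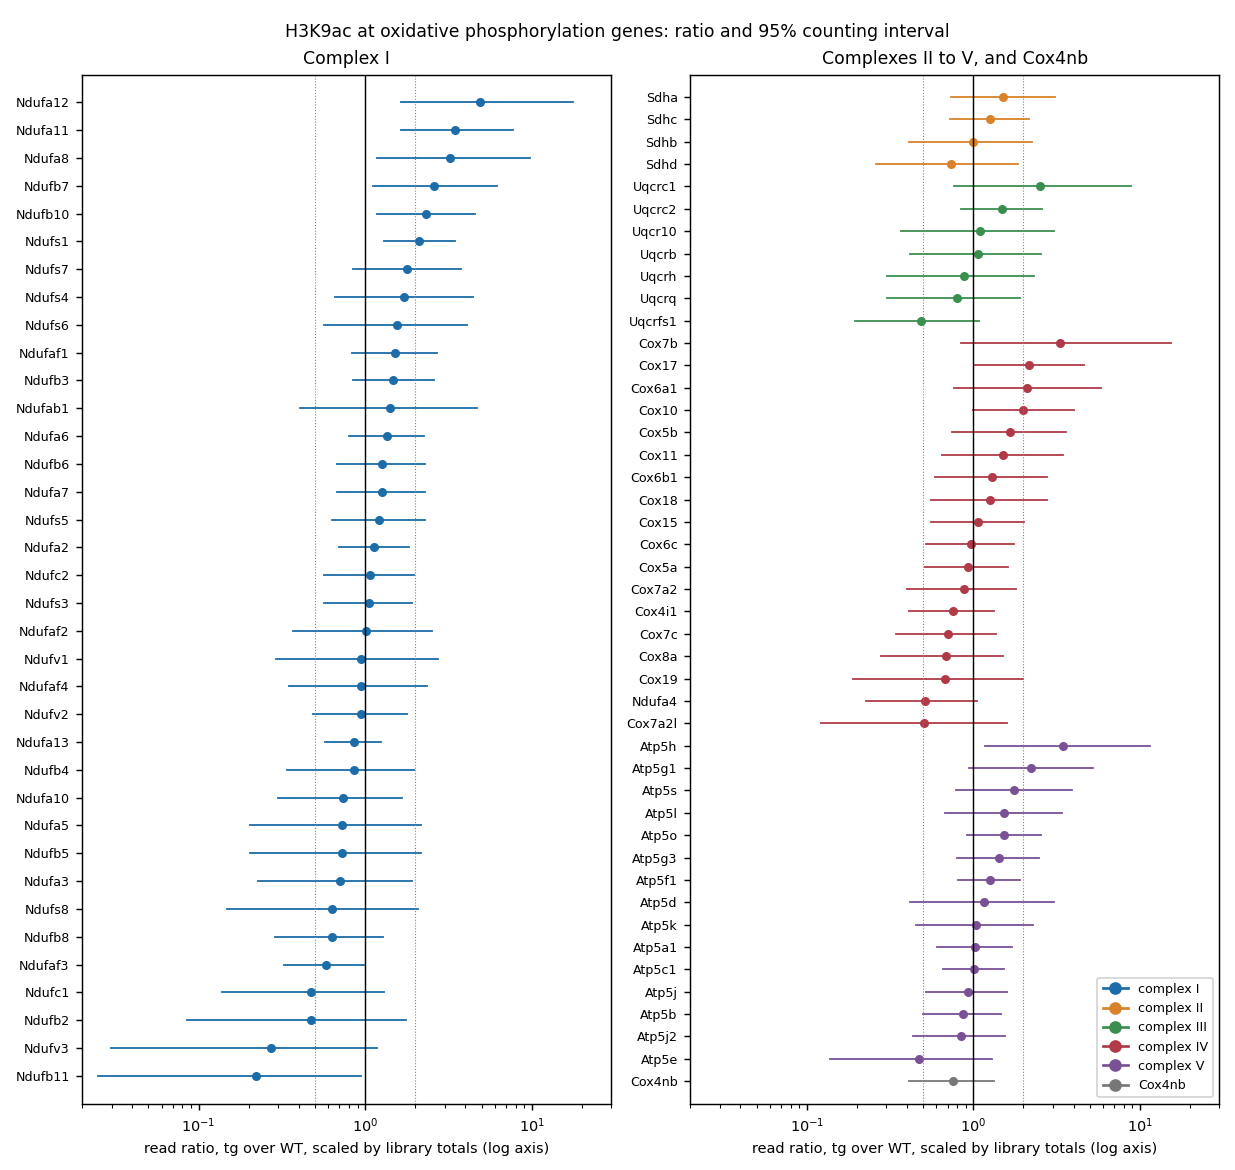
Read ratio of 81 of the 82 genes, tg over WT, scaled by library totals (points, log axis) with its 95% counting interval (lines); the solid line marks equality and the dotted lines a 2-fold difference. Most intervals cross equality. In complex I, Ndufa12, Ndufa11, Ndufa8, Ndufb7, Ndufb10 and Ndufs1 lie to the right of it and Ndufaf3 and Ndufb11 to the left, and outside complex I only Cox17 and Atp5h lie clear of it.

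Complex II, the succinate dehydrogenase of the citric acid cycle, is encoded entirely in the nucleus, and all 4 of its subunit genes were in the table. The flavoprotein gene Sdha had 16 reads in tg and 20 in WT (1.51, 0.733 to 3.07). The iron-sulfur subunit gene Sdhb had 10 in tg and 19 in WT (0.995, 0.413 to 2.25). The anchor genes differed in direction, with Sdhc at 24 reads in tg and 36 in WT (1.26, 0.720 to 2.17) and Sdhd at 7 in tg and 18 in WT over 2 probes (0.736, 0.260 to 1.85). All 4 intervals include 1. Sdha shares its values with Ccdc127, whose annotated span lies 29 bases from that of Sdha. Sdhc shares its values with another neighbour, so neither Sdha nor Sdhc can be assigned its reads alone.

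In complex III the ratio was highest at a core protein gene and lowest at the gene of a catalytic subunit. The core protein gene Uqcrc1 had 8 reads in tg and 6 in WT (2.52-fold higher, 0.767 to 8.82), and Uqcrc2 had 25 in tg and 32 in WT (1.48, 0.840 to 2.57). Uqcrfs1, which encodes the Rieske iron-sulfur protein, had 8 in tg and 31 in WT (2.05-fold lower, 0.921 to 5.16). All 3 intervals include 1. The small accessory subunit genes were nearer to equality: Uqcr10 had 7 reads in tg and 12 in WT (1.10, 0.368 to 3.04), Uqcrb 9 in tg and 16 in WT (1.06, 0.414 to 2.56), Uqcrh 7 in tg and 15 in WT (0.883, 0.304 to 2.30) and Uqcrq 8 in tg and 19 in WT (0.796, 0.302 to 1.91).

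The genes of complex IV fall into structural subunits and factors that assemble them. Its 11 subunit genes had 144 reads in tg and 292 in WT, a summed ratio of 0.933 (0.759 to 1.14), whereas its 6 assembly factor genes had 82 in tg and 110 in WT, a ratio of 1.41 (1.05 to 1.89). These intervals overlap, and the difference between the roles was not tested. Cox10, Cox15 and Cox17 have the same values as neighbouring genes. Most reads of the assembly factor sum therefore cannot be assigned to these genes alone. Of the assembly factors, Cox17, the copper chaperone, had 17 reads in tg and 15 in WT (2.14-fold higher, 1.01 to 4.61), with the same values as an overlapping gene model. Cox10, which makes haem O for the oxidase, had 19 in tg and 18 in WT (1.996, 0.992 to 4.03), and Cox15, which converts haem O to haem A, 17 in tg and 30 in WT (1.07, 0.555 to 2.01). The haem enzymes thus differed in ratio, with overlapping intervals. Cox11 had 12 reads in tg and 15 in WT (1.51, 0.647 to 3.46), Cox18 12 in tg and 18 in WT (1.26, 0.554 to 2.77) and Cox19 5 in tg and 14 in WT (0.676, 0.190 to 1.98).

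Among the subunits of complex IV, Cox7b on the X chromosome had 7 reads in tg and 4 in WT (3.31-fold higher, 0.841 to 15.4), and Cox6a1 had 10 in tg and 9 in WT (2.10-fold higher, 0.767 to 5.85). No subunit was 2-fold lower. Nearest to that was Ndufa4, which is named for complex I but is now counted as a subunit of complex IV, with 10 reads in tg and 37 in WT (1.96-fold lower, 0.954 to 4.41). Cox7a2l, a factor of supercomplex assembly, had 4 in tg and 15 in WT (1.98-fold lower, 0.632 to 8.21). All 4 of these intervals include 1. Cox4i1, which shares its probe with Cox4nb across 178 bases, had 18 in tg and 45 in WT (0.757, 0.412 to 1.33), and Cox6c 18 in tg and 35 in WT (0.973, 0.519 to 1.76). The subunit genes not yet given lay between ratios of 0.681 (Cox8a, 9 reads in tg and 25 in WT) and 1.65 (Cox5b, 14 reads in tg and 16 in WT), with intervals that include 1. The isoforms known from most tissues, Cox4i1, Cox6a1, Cox7a2 and Cox8a, had values. The lung or muscle isoforms Cox4i2, Cox6a2, Cox7a1 and Cox8b had no row under these symbols.

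The 15 genes of complex V had a median of 16 reads in tg and 32 in WT. The catalytic head genes Atp5a1 and Atp5b were close to equal, with 25 reads in tg and 46 in WT (1.03, 0.605 to 1.71) and 22 in tg and 48 in WT (0.867, 0.498 to 1.46). In the central stalk Atp5c1 had 37 in tg and 69 in WT (1.01, 0.661 to 1.53), with the same values as its neighbour Kin at 83 bases, and Atp5e had 5 in tg and 20 in WT (2.11-fold lower, 0.770 to 7.21). Atp5d, also of the central stalk, had 8 in tg and 13 in WT (1.16, 0.418 to 3.03). The intervals of all 3 central stalk genes include 1, and the reads of Atp5c1 cannot be assigned to it alone.

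The peripheral stalk, which holds the head in place, had a summed ratio of 1.32 (1.01 to 1.71) over 4 genes. Atp5f1 and Atp5j have the same values as neighbouring genes, so most reads of this sum cannot be assigned to the stalk alone. Atp5h (chromosome 11, 115415689 to 115419962) had 11 reads in tg and 6 in WT (3.47-fold higher, 1.18 to 11.4), and Atp5o had 30 in tg and 37 in WT (1.53, 0.915 to 2.55). Atp5f1 had 39 in tg and 59 in WT (1.25, 0.812 to 1.91), and Atp5j 21 in tg and 43 in WT (0.924, 0.521 to 1.59). Atp5j overlaps Gabpa by 701 bases and has the same values. Gabpa encodes the DNA-binding subunit of GABP, the ETS factor also called NRF2 that is known to act on respiratory chain genes, so the same reads are listed for a subunit and for a regulator of the pathway.

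The c ring that turns in the membrane is encoded by several genes whose mature proteins are identical. Atp5g1 had 14 reads in tg and 12 in WT over 2 probes (2.21-fold higher, 0.947 to 5.22), and Atp5g3 24 in tg and 32 in WT (1.42, 0.800 to 2.49). Together they had a ratio of 1.63 (1.03 to 2.58). Atp5k, a small membrane subunit, had 11 reads in tg and 20 in WT (1.04, 0.450 to 2.28). Atp5d, Atp5l, Atp5j2 and the coupling factor gene Atp5s lay between ratios of 0.841 (Atp5j2) and 1.77 (Atp5s), with intervals that include 1. Near-identical copies and processed pseudogenes are known for many genes of this set, and no source used here says how reads mapping to several places were treated.

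Of the 82 genes, 18 had the same values in both libraries as a gene within 100000 bases, among them Cox4i1 and Cox4nb with each other. Among the others, Ndufb3 shared with Fam126b at 61 bases, Cox10 with 2810001G20Rik at 16 bases, Cox15 with Cutc, with which it overlaps by 5 bases, and Atp5f1 with Wdr77. Ndufb2, Uqcrb and Atp5b shared with the gene models or small RNA genes Gm16272, Gm10767 and SNORD59 that overlap them. In each pair the reads cannot be assigned to either gene. Without the 18, 10 of 64 genes (15.6%) passed 2-fold upward in tg and 5 (7.81%) downward, beside 16.5% and 15.8% of all genes.

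Other genes of the pathway, from a list of assembly factors, electron carriers, ubiquinone synthesis genes and carriers that the symbol rule leaves out, were also centred near equality. Of 57 listed, 38 had a row. In tg, 3 of these (7.89%) passed 2-fold upward and 3 (7.89%) downward, beside 16.5% and 15.8% of all genes. Their median log2 ratio was 0.01. Atpif1, the inhibitor protein of ATP synthase that is known from work in zebrafish to be needed for haem synthesis, had 48 reads in tg and 32 in WT over 2 probes (2.84-fold higher, 1.78 to 4.59). Its deposited log2 ratio, a mean over probes on the log scale, was larger at 2.24. Taco1, a translational activator of a mitochondrially encoded complex IV subunit, had 44 in tg and 30 in WT (2.77-fold higher, 1.71 to 4.57). Coq7, a ubiquinone synthesis enzyme, had 8 in tg and 46 in WT (3.04-fold lower, 1.42 to 7.46), and Lyrm7, a complex III assembly factor, 4 in tg and 21 in WT (2.78-fold lower, 0.937 to 11.1). The interval of Lyrm7 includes 1.

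Of 23 listed regulators of the pathway, 16 had a row. In tg, 1 (6.25%) passed 2-fold upward and 0 downward, beside 16.5% and 15.8% of all genes. Their median log2 ratio was 0.10. The gene counted as higher was Nrf1, with a deposited log2 ratio of 1.39. Its summed reads, 76 in tg and 162 in WT over 2 probes, gave a ratio of 0.887 (0.667 to 1.17), in the opposite direction. Yy1 had 30 reads in tg and 94 in WT (1.66-fold lower, 1.09 to 2.59). The mitochondrial transcription factor gene Tfb2m had 11 in tg and 12 in WT (1.73, 0.693 to 4.29), and Sp1 6 in tg and 6 in WT (1.89, 0.506 to 7.07).

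The libraries differed in markers of blood cell types, beside which the pathway's values stand. For comparison, 16.5% of all genes passed 2-fold upward in tg and 15.8% downward. Of 22 erythroid markers 16 had a row, and 15 passed 2-fold upward in tg, with log2 ratios around a median of 3.57 and summed levels of 2028 scaled reads in tg and 525 in WT. Epor, Rhag, Alas2 and Hbb-b1 had 0 reads in WT. Of 20 neutrophil markers 5 had a row, all at least 2-fold lower in tg, with summed levels of 46.4 in tg and 223 in WT. They held only 1 to 3 reads each in tg. The ratio intervals of 3 of them lay below 1, while those of Csf3r and Prtn3 include 1. Of 14 monocyte markers 8 had a row, with summed levels of 195 in tg and 500 in WT. These went both ways, with 4 at least 2-fold lower in tg, 3 within 2-fold and Csf1r 4.26-fold higher (1.19 to 18.9). Of 16 lymphoid markers 4 had a row, all within 2-fold, with summed levels of 281 in tg and 200.2 in WT, and most of these reads were at Vpreb1 (30 in tg and 33 in WT). In marrow, fewer cells of a type and less mark per cell cannot be told apart, and the part of cell composition in the pathway's ratios was not tested. The libraries also differed at Y-linked genes, with 0 reads at Uty in tg and 28 in WT, and 1 at Ddx3y in tg and 22 in WT. Any difference in sex or Y chromosome content between the animals falls together with Mx-Cre in these single libraries. Its part in the pathway's ratios was not tested. The X-linked genes of the table had a median log2 ratio of -0.24, and the X-linked Ndufb11 and Cox7b lay on opposite sides of it.

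**Figure D4:**
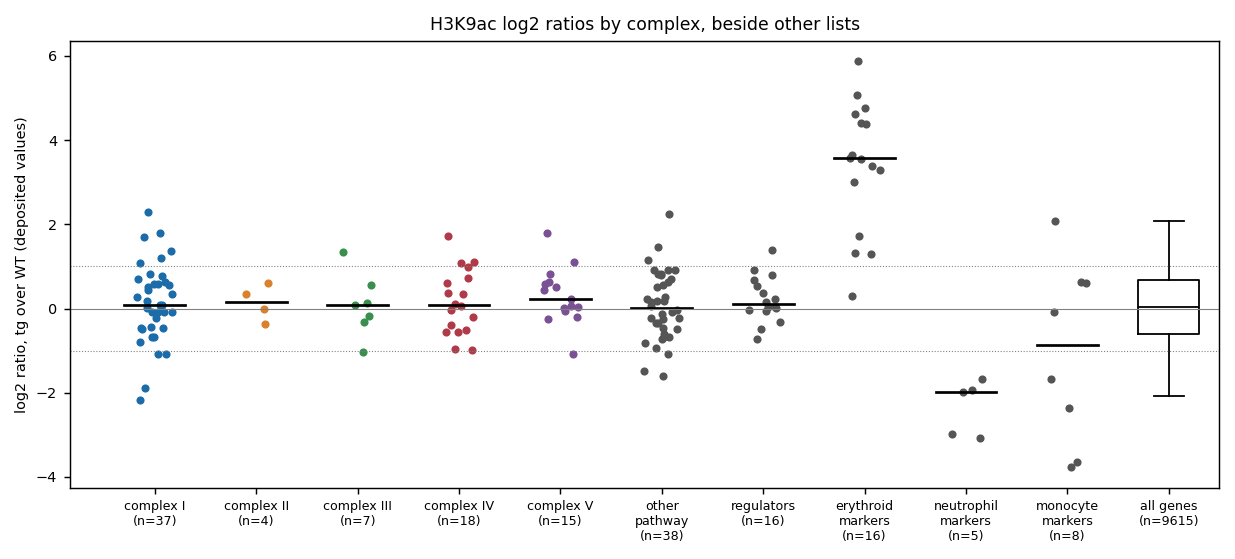
Log2 ratio of each gene, tg over WT, from the deposited values (points, with black bars at the medians), by complex and for the comparison lists, beside a box of all genes (median and quartiles, whiskers at the 5th and 95th percentiles); dotted lines mark a 2-fold difference. The medians of the 5 complexes lie between 0.08 and 0.22, while erythroid markers lie above (median 3.57) and neutrophil markers below (-1.99).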

How the data were processed

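H3K9ac was measured by ChIP-seq in 1 tg and 1 WT library. The submitters' processing notes name CASAVA 1.8.2, FastQC, BWA and SAMtools, and as builds GRCm38 and mm10, with no order or role. The placing of probes and the treatment of duplicate or multiply mapping reads: not given in the sources used here. Per the file headers, the deposited values are means and standard deviations over a gene's probes, and they lie on a log2 scale. Columns were matched to samples by the library codes in their names. No column matched an IgG library.

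Whole reads were worked out from the deposited log2 values. For all 7423 genes with 1 probe, the linear values were whole multiples of 1 step (6.11 in tg and 3.23 in WT) within 0.01 of a read, with 0 reads entered as 0.9 of a read. Assuming scaling to 1000000, the steps give the totals used as library totals, which need not be all sequenced reads. For 2 probes the mean and standard deviation give both counts. The lowest 1-probe gene held 9 reads over both libraries. A count of 0 allows up to 3 reads, 18.3 scaled reads in tg and 9.69 in WT.

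The difference was the log2 value of tg minus that of WT. Ratios of summed reads carry exact conditional binomial (Clopper-Pearson) 95% intervals for counting error (Python 3.11.15, SciPy 1.17.1). The recovery of reads and the intervals were tested on simulated data. Named were genes beyond 2-fold, genes whose interval left out 1, the 3 with the highest level in each complex, all of complexes II and III, the 4 nearest to equality among genes at or above the median level, and up to 4 of each pathway list. Other members were named after their values were seen. Values of 1 member and the name of 1 neighbouring gene are not reported here. The genes, lists and rules were chosen with earlier results of these data known.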

Additional observations from a re-analysis of the deposited data

How the results depend on the processing

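With 1 library per group no replicate could be left out. No paired analysis was possible because each group has 1 library. The count of genes at least 2-fold higher in tg was 12, and 6 were at least 2-fold lower. Both counts stayed within 1.5 times of these values with reads summed over probes, centring on the median of all genes, subunits only, 1-probe genes only, genes without shared values, and 0 reads entered as 0.5 of a read. They moved to 24 higher and 11 lower at 1.5-fold, to 5 and 2 at 3-fold, and to 5 and 1 among genes at or above the median level. Fewer genes are counted by construction in the last of these. There the median log2 ratio was 0.28 over all members in place of 0.09, and 0.33 for complex I. All genes of the table at that level had a median of 0.03. The other medians moved by less than the counting interval of the summed reads, though 2 of them changed sign. These were complex III (-0.24 at or above the median level, from Uqcrc2 and Uqcrfs1 alone) and complex IV (-0.04 for subunits only). For single genes these settings could change little, since 73 of the 82 have 1 probe and none has 0 reads. Single libraries leave the variation between animals unmeasured, and a median of 13 reads in tg makes the counting intervals wide.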
